A study of Mus musculus with 12 samples.

Results

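The mitochondrial genome of the mouse carries 7 genes for subunits of respiratory complex I: mt-Nd1, mt-Nd2, mt-Nd3, mt-Nd4l, mt-Nd4, mt-Nd5 and mt-Nd6. They were taken by symbol from the gene count table of whole hearts, and all 7 were found among its 25171 loci. The RNA-seq experiment compared 12 hearts in 4 groups of 3. The mice carried a NOTCH2NLC transgene with 98 GGC repeats behind a loxP-flanked stop at Rosa26, in controls as well as in transgenic animals. In EIIa-tg mice the EIIa-Cre allele (E2a in the labels), active throughout the body, removed the stop, and these hearts were collected at postnatal day 30 beside those of EIIa-ctl littermates that lacked the Cre. By the paper's account, Myh6-tg mice carried a tamoxifen-inducible Cre under the cardiomyocyte promoter Myh6 (Myh6-creERT2), for which Esr1 counts are given below. They had 3 injections of tamoxifen at 75 mg/kg from day 60, and hearts were collected at day 90. Myh6-ctl mice carry the same genotype label, were injected with corn oil and were also collected at day 90. The Myh6 comparison therefore cannot tell tamoxifen and Cre activation apart from the transgene, and the labels name no batch.

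Complex I, NADH:ubiquinone oxidoreductase, is the entry point of electrons from NADH into the respiratory chain and pumps protons across the inner mitochondrial membrane. The 7 mitochondrially encoded subunits form the core of its membrane arm, whereas the remaining subunits are encoded in the nucleus and imported. Heart muscle is among the tissues richest in mitochondria, and mitochondrial transcripts take a large share of its RNA. In mitochondria both strands are transcribed into long precursors that are cut into single mRNAs, and mt-Nd6 is the one protein gene that lies on the light strand.

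On the GRCm38 assembly (GENCODE M21 annotation), the 6 genes of the heavy-strand transcript lie on the plus strand of the mitochondrial chromosome as intronless coding genes: mt-Nd1 at chrM:2751-3707, mt-Nd2 at chrM:3914-4951, mt-Nd3 at chrM:9459-9806, mt-Nd4l at chrM:9877-10173, mt-Nd4 at chrM:10167-11544 and mt-Nd5 at chrM:11742-13565. mt-Nd6 lies on the minus strand at chrM:13552-14070. Their lengths run from 297 bases (mt-Nd4l) to 1824 bases (mt-Nd5), with 519 bases for mt-Nd6. The base composition of the transcript separates mt-Nd6 from the rest: G makes up 28.1% of its bases against 8.0% to 11.6% in the 6 others, and C makes up 5.97% against 22.1% to 30.0%. The first 30 bases of 3 of the genes are shown for the low C content of mt-Nd6, with the annotated first codon in capitals:

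mt-Nd1: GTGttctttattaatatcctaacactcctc
mt-Nd3: ATTaacctgtacactgttatcttcattaat
mt-Nd6: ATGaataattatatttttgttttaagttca

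Of the 7 annotated transcripts, 3 begin with ATG (mt-Nd4l, mt-Nd4 and mt-Nd6), and the others begin with GTG, ATA, ATT or ATC. Genes overlap at 2 places, which are shown because a read there cannot be given to 1 gene by its position alone. mt-Nd4l and mt-Nd4 sit in 1 bicistronic mRNA, and the last 7 bases of the first (chrM:10167-10173, capitals) are the first 7 of the second:

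mt-Nd4l, last 30 bases: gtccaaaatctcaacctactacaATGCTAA
mt-Nd4, first 30 bases: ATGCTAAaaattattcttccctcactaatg

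mt-Nd5 and mt-Nd6 run towards each other and share their last 14 bases on opposite strands (chrM:13552-13565, capitals):

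mt-Nd5, last 30 bases: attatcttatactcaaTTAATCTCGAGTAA
mt-Nd6, last 30 bases: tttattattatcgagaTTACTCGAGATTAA

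Annotated nuclear pseudogenes hold near copies of 6 of the 7 genes, and no copy of mt-Nd1 was found in the annotated transcripts. The closest stand on chromosome 1, where Gm28438 matches 345 bases of mt-Nd3 at 99.7% identity (chr1:24612775-24613119), Gm10222 matches 294 bases of mt-Nd4l at 100% (chr1:24612407-24612700) and Gm28439 matches the first 876 bases of mt-Nd4 at 100% (chr1:24611535-24612410). Copies of mt-Nd2 (Gm13339), mt-Nd5 (Gm4076) and mt-Nd6 (Gm11408) were 96.7%, 95.2% and 93.6% identical over the aligned bases. None of these nuclear loci has a row in the count table, so they could not be analysed here. Counts of mt-Nd3, mt-Nd4l and the first part of mt-Nd4 are uncertain by whatever share of reads was given to the copies.

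The 12 libraries held 38343106 to 50969834 counts. The extraction protocol in the labels names brain tissue while the tissue label is heart, and the 9 cardiomyocyte markers listed for a check of it, among them Myh6, Tnnt2 and Myl2, were present in all 12 libraries at summed levels of 10714 to 52241 counts per 1e6 (CPM, scaled with TMM factors). Replicate 1 of each group had 4224 to 7307 counts over 4 Y-linked genes and replicates 2 and 3 had 0 to 2, so each group holds 1 heart with Y-linked reads and 2 without. EIIa-tg replicates 2 and 3 bear other genotype labels than replicate 1 and were grouped by their titles. Esr1, the gene of the estrogen receptor from which the inducible Cre is built, had 103037, 53433 and 54306 counts in the Myh6-ctl hearts but 61, 116 and 53 in the Myh6-tg hearts and 15 to 54 in the EIIa hearts. The Myh6-tg hearts were therefore at the level of hearts without the inducible Cre, and the part of this difference in the results below was not tested.

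The 7 genes together took 12.1% ± 0.572 (SD, n = 3) of all counts in EIIa-ctl hearts, 10.1% ± 0.586 in EIIa-tg, 6.12% ± 0.564 in Myh6-tg hearts and 12% ± 1.69 in their Myh6-ctl controls. The single hearts lay between 11.6% and 12.7% in EIIa-ctl and between 9.45% and 10.6% in EIIa-tg. In Myh6-ctl they had 13.3%, 12.6% and 10.1%, and in Myh6-tg 6.36%, 6.54% and 5.48%. In both models the groups did not overlap, and the lowest control was Myh6-ctl replicate 3.

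Levels were compared between the 7 genes per length, in fragments per kilobase of gene scaled to the library total (FPKM). In EIIa-ctl hearts the order was mt-Nd1 (29438 ± 776 FPKM, SD, n = 3), mt-Nd4 (23533 ± 1119), mt-Nd2 (20147 ± 1089), mt-Nd6 (17750.3 ± 748), mt-Nd5 (13639 ± 1539.6), mt-Nd4l (7360.5 ± 513) and mt-Nd3 (1747 ± 158). mt-Nd1 was thus 16.8 times as high as mt-Nd3, and in EIIa-ctl no neighbours in this order overlapped in their ranges. The order stayed the same in EIIa-tg and in Myh6-ctl, with overlapping ranges for mt-Nd2 and mt-Nd6 in EIIa-tg. In Myh6-ctl each of the first 4 steps of the order, from mt-Nd1 down to mt-Nd5, had overlapping ranges between neighbours. In Myh6-tg mt-Nd6 (9330.3 ± 1456) and mt-Nd2 (9079 ± 1150.4) changed places in the means, but their ranges overlapped and mt-Nd6 was the higher in 1 of 3 hearts, so this order was not separable. The level of mt-Nd6 per length was at rank 3 or 4 of the 7 genes in each group. mt-Nd4l and mt-Nd4 lie in 1 mRNA, yet their FPKM differed in each group, so this order need not be that of transcript levels. Reads placed on nuclear copies and reads of the strand opposite mt-Nd6 could also enter it, which was not tested.

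**Figure D1:**
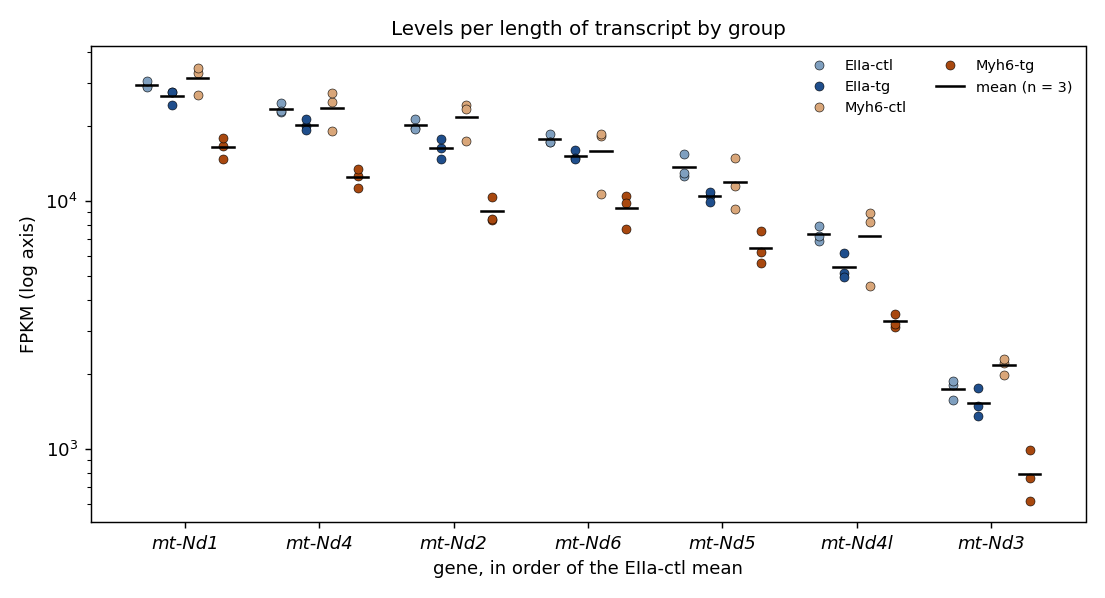
FPKM (log axis) of the 7 genes in each of the 12 hearts, coloured by group, with the mean of 3 hearts as a bar. The genes spread over a 16.8-fold range in EIIa-ctl, mt-Nd3 is lowest in each group, and the Myh6-tg points lie lowest for each gene.

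In EIIa-tg hearts at day 30 all 7 genes had lower levels than in EIIa-ctl, by 0.35 to 0.64 on the log2 scale, and in CPM scaled with TMM factors the transgenic hearts lay below the controls without overlap for each. In FPKM, scaled to the library total, the groups overlapped for mt-Nd3, with 1569 in the lowest control and 1753 in the highest EIIa-tg heart. None of the 7 met the threshold used for a call (adjusted p under 0.01 and at least a 2-fold change in edgeR's quasi-likelihood test), which 0% of the 14908 genes tested met in this comparison. Scaled to total counts the 7 differences were -0.44 to -0.16, with a median of -0.22 beside 0.21 for all genes tested. At an adjusted p under 0.05, mt-Nd4l fell (8.3% of all genes tested fell at that threshold). Groups without overlap on the lower side were common here, at 20.8% of all genes tested. At an unadjusted p under 0.05, 4 of the 7 were lower, beside 17.4% of all genes tested. In bulk RNA a lower level can come from fewer cells of a type or from less RNA per cell, and the data cannot tell these apart.

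mt-Nd1 encodes the subunit that forms much of the chamber in which ubiquinone is reduced. Its level in CPM scaled with TMM factors was 32769, 29956 and 33156 in the EIIa-ctl hearts and 26739, 27078 and 21608 in the EIIa-tg hearts. The log2 fold change was -0.35 ± 0.23 (SE), with an adjusted p of 0.314 by edgeR. mt-Nd2, mt-Nd4 and mt-Nd5 encode the 3 antiporter-like subunits that carry proton channels. mt-Nd2 had 26091.5, 22064 and 23074 CPM in EIIa-ctl against 17362, 18965 and 14218 in EIIa-tg. mt-Nd4 had 40176.5, 34123 and 36153 CPM against 28040.5, 30367.5 and 24645. mt-Nd5 had 32992, 24835.5 and 27035 CPM against 19499, 20460.5 and 16709.8. For each pump gene the EIIa-tg replicate 3 was lowest of the 6 hearts, and their log2 fold changes of -0.50, -0.41 and -0.59 had adjusted p values of 0.151, 0.245 and 0.111 by edgeR.

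mt-Nd3, mt-Nd4l and mt-Nd6 encode small membrane subunits that lie between mt-Nd1 and the pump subunits. mt-Nd4l had 2763, 2229 and 2458 CPM in EIIa-ctl and 1549, 1881 and 1366 in EIIa-tg, a log2 fold change of -0.64 ± 0.17 with an adjusted p of 0.0384 by edgeR. This adjusted p was 0.0072 without EIIa-tg replicate 2 and 0.0558 to 0.133 when any other single heart was left out. mt-Nd3 had 641, 681 and 743 CPM against 622, 533 and 437, with a narrow gap between the lowest control and the highest transgenic heart. mt-Nd6 had 11346, 9736 and 10291 CPM against 8454, 7963 and 7131. Their log2 fold changes were -0.38 ± 0.15 and -0.42 ± 0.18, with adjusted p values of 0.108 and 0.136 by edgeR. DESeq2 also called 0 of the 7 (1.72% of its genes were called lower) but gave them adjusted p values of 0.000282 to 0.0406, all under 0.05, where 10.9% of its genes fell at that threshold.

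**Figure D2:**
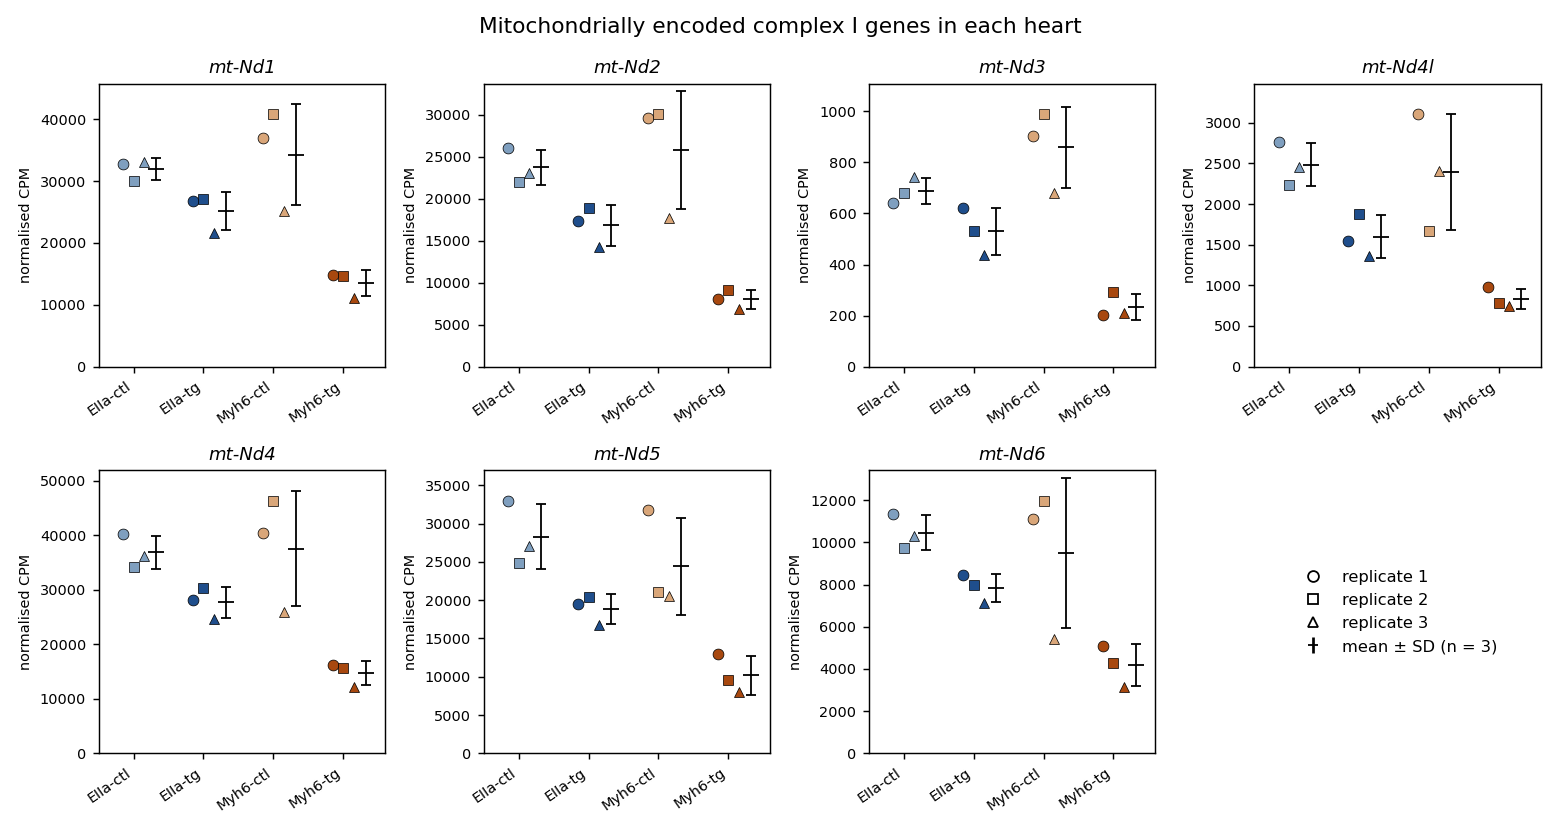
Normalised CPM (TMM factors over the 12 hearts, axes from 0) of each gene in each heart, with replicate numbers as symbols and the mean ± SD of 3 hearts to the right of the points. The transgenic hearts lie below the controls of their own model for each gene, with a wider gap in the Myh6 model, and Myh6-ctl replicate 3 is the lowest Myh6 control for 6 of the 7 genes; for mt-Nd4l replicate 2 is.

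In Myh6-tg hearts at day 90 the 7 genes had 27.2% to 43.9% of the mean control level, with log2 fold changes of -1.19 to -1.88, and again no transgenic heart reached a control heart. mt-Nd3 fell by 1.88 on the log2 scale and was the 1 gene of the 7 that was called (2.05% of the 15298 genes tested were called lower). At an adjusted p under 0.05, 5 of the 7 fell: mt-Nd1, mt-Nd2, mt-Nd3, mt-Nd4l and mt-Nd4 (9.38% of all genes tested fell at that threshold). mt-Nd5 and mt-Nd6 did not pass it. Groups that do not overlap on the lower side made up 19.6% of all genes tested.

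mt-Nd3 had 905, 990.2 and 681 CPM in the Myh6-ctl hearts and 201, 290.4 and 208 in the Myh6-tg hearts. Its log2 fold change was -1.88 ± 0.26 (SE) with an adjusted p of 0.00522 by edgeR. Its adjusted p was 0.00401 without Myh6-tg replicate 1 and 0.0154 to 0.0279 when Myh6-ctl replicate 1, 2 or 3 or Myh6-tg replicate 2 or 3 was left out, where it was no longer called. mt-Nd4l had 3108, 1674 and 2404 CPM in the controls and 973, 780.4 and 742 in the transgenic hearts, a change of -1.53 ± 0.30 (adjusted p = 0.0149 by edgeR). mt-Nd6 had 11097, 11975 and 5431 CPM in the controls and 5103, 4302 and 3121 in the transgenic hearts. Here the lowest control, replicate 3, stood just above the highest transgenic heart, and the change of -1.19 ± 0.40 had an adjusted p of 0.0746 by edgeR. Without that control the change in mt-Nd6 was -1.48 with an adjusted p of 0.0519.

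mt-Nd1 had 36904, 40869.8 and 25145 CPM in Myh6-ctl and 14859, 14576 and 11045 in Myh6-tg, a change of -1.35 ± 0.38 (adjusted p = 0.0445 by edgeR). Among the pump genes, mt-Nd2 had 29599.9, 30121 and 17713 CPM against 8110.3, 9155 and 6873. mt-Nd4 had 40396, 46301 and 25907 CPM against 16249.6, 15647 and 12135. mt-Nd5 had 31735, 21005 and 20553.5 CPM against 12932, 9626 and 7974. In mt-Nd1, mt-Nd2 and mt-Nd4 replicate 3 was well under the other controls, whereas in mt-Nd5 replicates 2 and 3 were both low. The log2 fold changes of the pump genes were -1.68 ± 0.37, -1.35 ± 0.39 and -1.26 ± 0.38, with adjusted p values of 0.0213, 0.0495 and 0.0541 by edgeR.

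The number of genes with an adjusted p under 0.05 in the Myh6 comparison fell from 5 to 1 without Myh6-ctl replicate 1, Myh6-tg replicate 2 or Myh6-tg replicate 3. It was 2 without Myh6-ctl replicate 2, 3 without Myh6-ctl replicate 3 and 4 without Myh6-tg replicate 1. Deviations of same-numbered Myh6 hearts from their group means correlated at 0.173 to 0.285, although the labels do not pair them. With the replicate number as a block 3 of the 7 genes were called: mt-Nd2 (-1.65, adjusted p = 0.00856), mt-Nd3 (-1.88, 0.00343) and mt-Nd4l (-1.49, 0.00837), beside 3.6% of all genes called lower. DESeq2, without a block, called all 7, beside 7.37% of its genes called lower. In the blocked fit all 7 fell at an adjusted p under 0.05, with values of 0.00343 to 0.0231 in edgeR, where 11.2% of all genes did. Between the hearts with Y-linked reads (1 against 1) the log2 differences were -2.17 to -1.12 in the Myh6 model and -0.83 to -0.05 in the EIIa model, and between the means of the hearts without them (2 against 2) they were -1.74 to -1.14 and -0.56 to -0.36. Scaling to total counts in place of TMM factors moved the median of all genes from 0.03 to 0.43 in the Myh6 comparison and the median of the 7 genes from -1.35 to -0.94.

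The log2 fold change lay further below 0 in the Myh6 model than in the EIIa model for each of the 7 genes, and the difference itself was tested as an interaction over the 12 hearts. The differences were -1.5 for mt-Nd3, -1.19 for mt-Nd2, -1.0 for mt-Nd1, -0.94 for mt-Nd4, -0.89 for mt-Nd4l, -0.77 for mt-Nd6 and -0.68 for mt-Nd5. None was called by edgeR (0.622% of 15929 genes tested were, in either direction), and 5 of the 7 had an unadjusted p under 0.05 with a lower value in the Myh6 model (10.8% of all genes). DESeq2 called 2 of the 7, beside 2.55% of its genes called lower. At an adjusted p under 0.05, mt-Nd3 alone passed among the 7 (-1.5 ± 0.29, adjusted p = 0.0152 by edgeR), as did 2.27% of all genes on the lower side. Its adjusted p was 0.0501 without EIIa-ctl replicate 1 and 0.0112 to 0.0466 when any other heart was left out. The 6 other genes had adjusted p values of 0.118 to 0.39 by edgeR, whereas DESeq2 gave mt-Nd2 an adjusted p of 0.00364, mt-Nd1 0.0108 and mt-Nd4 0.03, and 0.06 to 0.224 to the rest of the 6. Age, Cre line and injection differ between the models and cannot be told apart in this contrast. The Esr1 counts given above also differed between Myh6-ctl and Myh6-tg, and their part in it was not tested.

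**Figure D3:**
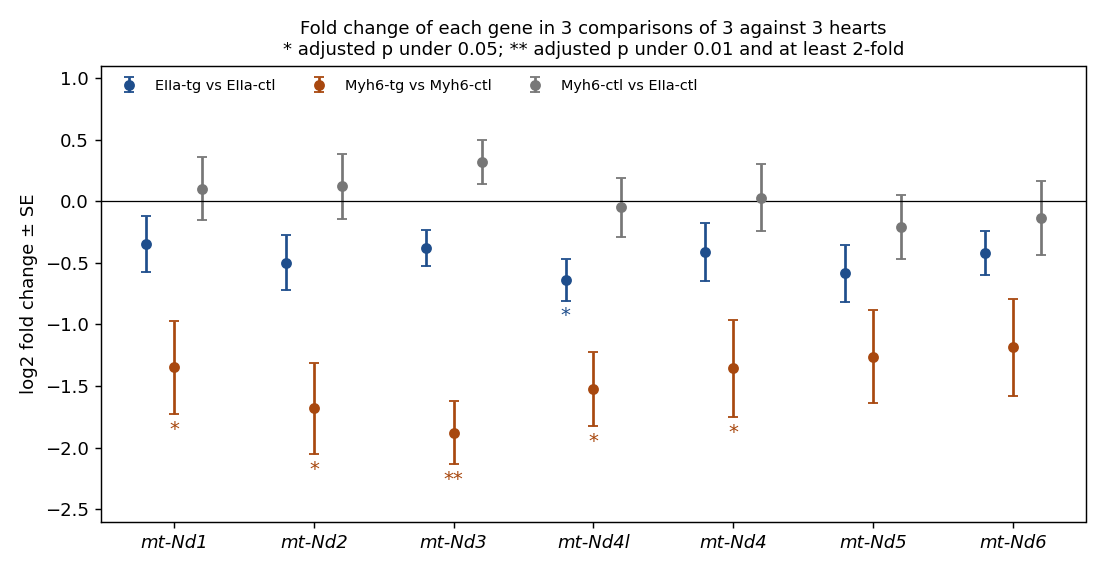
Log2 fold change ± SE of each gene from edgeR in 3 comparisons of 3 against 3 hearts; 1 asterisk marks an adjusted p under 0.05 and 2 asterisks a call. The EIIa values lie between -0.35 and -0.64, the Myh6 values between -1.19 and -1.88, and the values between the control groups between -0.21 and 0.32.

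Between the control groups, which differ in age, line, Cre allele and the injection of oil, the 7 genes differed by -0.21 (mt-Nd5) to 0.32 (mt-Nd3) on the log2 scale. None was called by edgeR (0.0334% of 14990 genes tested were) or by DESeq2 (1.06%), and 0 of the 7 had an unadjusted p under 0.05 (11.3% of all genes) in edgeR. The ranges of the groups overlapped for each gene. The lowest adjusted value of the 7 was that of mt-Nd3, with 641 to 743 CPM in EIIa-ctl and 681 to 990.2 in Myh6-ctl (adjusted p = 0.547 by edgeR). The spread among Myh6-ctl hearts was wide: the SD of mt-Nd6 was 3552 CPM around a mean of 9501, against 818 around 10458 in EIIa-ctl.

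mt-Nd6 was compared with each of the 6 heavy-strand genes as the log2 ratio of counts within each heart, which does not depend on scaling between libraries. The library kit is not described as strand-specific and no strand setting is given for the counting, so reads of mt-Nd6 and reads of the opposite strand over it cannot be told apart. In EIIa-ctl hearts the ratio to mt-Nd4 was -1.82, -1.81 and -1.81, and the ratio to mt-Nd2 was -1.20, -1.18 and -1.16. These were the tightest values of the 4 groups, and in Myh6-ctl the same ratios were -1.86, -1.95 and -2.25 for mt-Nd4 and -1.42, -1.33 and -1.71 for mt-Nd2. The heart that stood apart was again Myh6-ctl replicate 3, which had the lowest ratio of the 12 hearts to each of the 6 genes.

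In the EIIa model the ratios of transgenic and control hearts differed by -0.06 to 0.23 on the log2 scale, and exact permutation tests (two-sided, 20 splits) gave p values of 0.2 to 1. In the Myh6 model mt-Nd6 was higher relative to mt-Nd3 in all 3 transgenic hearts (4.66, 3.89 and 3.91) than in any control (3.62, 3.6 and 2.99), a difference of 0.75. Relative to mt-Nd2 it was -0.67, -1.09 and -1.14 in transgenic hearts and -1.42, -1.33 and -1.71 in controls, a difference of 0.52. Both had an exact permutation p of 0.1, the smallest that 3 against 3 hearts can give. The differences for the 4 other genes were 0.13 to 0.36, with overlapping groups and exact permutation p values of 0.4 to 0.7. Without Myh6-ctl replicate 3 the differences for mt-Nd4l and mt-Nd5 turned to -0.03 and -0.12. Over both models, with labels permuted within each (400 splits), the ratio to mt-Nd2 was 0.30 higher in transgenic hearts (exact permutation p = 0.02, adjusted p = 0.12 over the 6 ratios), and the other 5 had adjusted p values of 0.315 to 0.62. No ratio passed an adjusted p of 0.05. Without EIIa-tg replicate 2 the ratio to mt-Nd2 did (adjusted p = 0.03, exact permutation), and without Myh6-ctl replicate 2 the ratios to mt-Nd4l and mt-Nd5 did (differences of 0.52 and 0.30, adjusted p = 0.03 each, exact permutation). With labels swapped only between same-numbered hearts, the ratio to mt-Nd2 had an exact permutation p of 0.0625, where 0.03125 is the smallest possible. The adjusted p values of the 6 ratios were then 0.328 to 0.469. Hearts are matched there by number alone, and deviations of same-numbered EIIa hearts from their group means correlated at only -0.07 to 0.06. Between the control groups, the ratios to mt-Nd1, mt-Nd2, mt-Nd3 and mt-Nd4 were lower in all 3 Myh6-ctl hearts than in any EIIa-ctl heart, by 0.21 to 0.52 (exact permutation p = 0.1 each, adjusted p = 0.15).

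**Figure D4:**
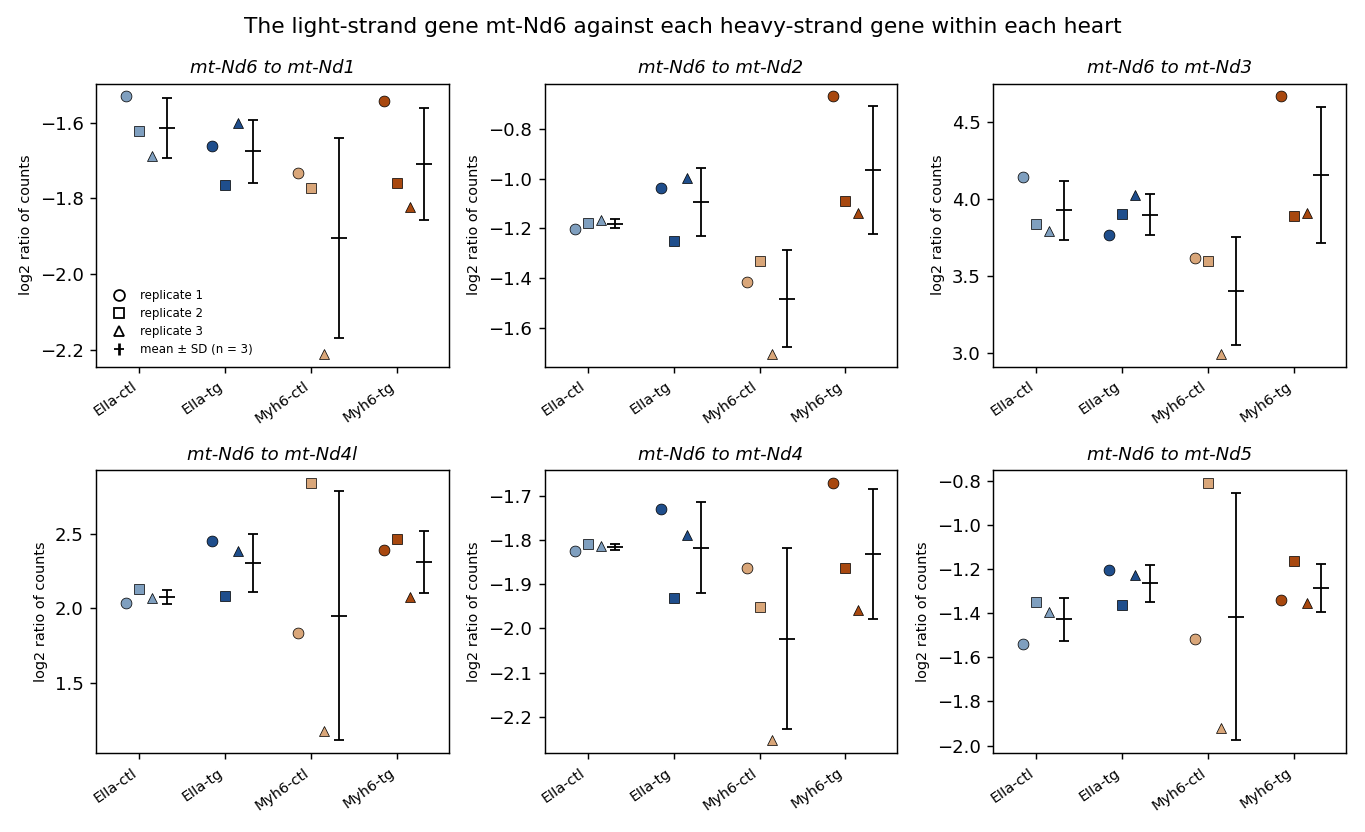
Log2 ratio of mt-Nd6 counts to those of each heavy-strand gene within each heart, with the mean ± SD of 3 hearts; the vertical axes differ between panels. In the panels for mt-Nd2 and mt-Nd3 the Myh6-tg hearts lie above the Myh6-ctl hearts without overlap, and Myh6-ctl replicate 3 is the lowest point in each panel.

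Ratios among the heavy-strand genes are given as values, with no test. Against mt-Nd1, mt-Nd2 had log2 ratios of -0.32, -0.44 and -0.51 in Myh6-ctl and of -0.87, -0.67 and -0.68 in Myh6-tg, without overlap. mt-Nd3 had ratios to mt-Nd1 of -5.35, -5.37 and -5.21 in Myh6-ctl and of -6.21, -5.65 and -5.73 in Myh6-tg, also without overlap. The ratio of mt-Nd4 to mt-Nd1 stayed between 0.04 and 0.29 in the 12 hearts. mt-Nd4l and mt-Nd4, which share an mRNA, had a ratio of -3.94 to -3.86 in EIIa-ctl and of -4.18 to -4.01 in EIIa-tg, whereas the Myh6-ctl hearts had -3.70, -4.79 and -3.43. Replicate 2 of that group was thus the lowest of the 12 hearts, and its mt-Nd4l and mt-Nd5 levels were low together.

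After the group means were removed, mt-Nd1 and mt-Nd4 varied together over the 12 hearts (Pearson's r = 0.97), as did mt-Nd4 and mt-Nd6 (0.96) and mt-Nd4l and mt-Nd5 (0.82). The values for mt-Nd4l and mt-Nd4 (0.08) and for mt-Nd3 and mt-Nd4l (-0.17) were near 0. These are descriptions over 12 hearts in 4 groups that share library depth and scaling.

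Within the transcripts of the 13 protein genes of the mitochondrial genome, the 7 complex I genes had 34.6%, 33.9% and 34.5% of the counts in EIIa-ctl hearts and 32.7%, 32.7% and 33.2% in EIIa-tg hearts. In the Myh6 model they had 34.9%, 33.5% and 31.8% in controls and 35.5%, 35.2% and 35.4% in transgenic hearts. The share was thus lower in each EIIa-tg heart than in any EIIa-ctl heart and higher in each Myh6-tg heart than in any Myh6-ctl heart. The mean share of mt-Co1, outside the 7, went the other way. It was 38.3% and 39.9% in EIIa-ctl and EIIa-tg and 37.2% and 34.2% in Myh6-ctl and Myh6-tg. In Myh6-tg the mean shares of mt-Nd2, mt-Nd3 and mt-Nd4l were lower than in Myh6-ctl, and those of mt-Nd1, mt-Nd4, mt-Nd5 and mt-Nd6 higher. Outside the 7, those of mt-Cytb, mt-Atp6 and mt-Atp8 were also higher. The 6 remaining genes, which encode subunits of complexes III, IV and V, had a median log2 fold change of -0.37 in the EIIa comparison and -1.39 in the Myh6 comparison, beside -0.42 and -1.35 for the 7. None of the 6 was called in either comparison. In the Myh6 comparison 4 of the 6 fell at an adjusted p under 0.05, a count that became 3 without Myh6-ctl replicate 3 or Myh6-tg replicate 1 and 0 without any 1 of the 4 other hearts. Among the 4 was mt-Co3, a subunit of cytochrome oxidase (-1.76 ± 0.36, adjusted p = 0.0166 by edgeR).

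The nuclear partners of complex I were examined from a list of 37 subunit genes, 36 of which were in the table. In the EIIa comparison 35 of 36 had a negative log2 fold change, with a median of -0.37 beside 0.02 for all genes tested, and none was called by edgeR or DESeq2. In edgeR 21 of 36 had an unadjusted p under 0.05, beside 17.4% of all genes tested on the lower side. At an adjusted p under 0.05, 9 of the 36 fell, beside 8.3% of all genes tested. Ndufa12 (107 ± 15.3 CPM in EIIa-ctl and 68.7 ± 7.13 in EIIa-tg; -0.64 ± 0.13, adjusted p = 0.0227), Ndufs4 (-0.64 ± 0.14, 0.0248) and Ndufab1 (-0.64 ± 0.16, 0.0345) had the lowest p by edgeR. Ndufa1 was the 1 gene with a positive value (0.04 ± 0.15, adjusted p = 0.882). In the Myh6 comparison all 36 had a negative value, with a median of -1.12 beside 0.03 for all genes. Ndufs4 (125 ± 29.99 CPM in Myh6-ctl and 47.4 ± 6.77 in Myh6-tg; -1.39 ± 0.23, adjusted p = 0.00924) and Ndufb2 (-1.70 ± 0.28, 0.00945) were called, beside 2.05% of all genes tested called lower. At an adjusted p under 0.05, 25 of the 36 fell, beside 9.38% of all genes tested. With the replicate block 14 of the 36 were called, beside 3.6% of all genes called lower. The 25 became 3 without Myh6-ctl replicate 1, 9 without Myh6-ctl replicate 2, 5 without Myh6-tg replicate 2 and 4 without Myh6-tg replicate 3, and 14 were called without Myh6-tg replicate 1. Over all single hearts left out, 3 to 30 of the 36 fell at an adjusted p under 0.05. The 9 of the EIIa comparison became 0 without EIIa-ctl replicate 1 or 3 or EIIa-tg replicate 1 or 3, 2 without EIIa-ctl replicate 2 and 19 without EIIa-tg replicate 2. The interaction was below 0 for the 36 genes, with a median of -0.76, and none passed an adjusted p of 0.05; the lowest p belonged to Ndufb11, Ndufb5 and Ndufa5 (-0.96, -0.91 and -1.11, adjusted p = 0.0749 to 0.0794 by edgeR). Between the control groups the median was -0.13 and no gene passed. The lowest p there belonged to Ndufs1, Ndufv1 and Ndufs4 (-0.41, -0.30 and -0.31, adjusted p = 0.444 to 0.573).

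Genes of mitochondrial transcription, mtDNA copying and RNA handling were examined as a list of 34 tested genes. In the EIIa comparison 10 of the 34 fell at an adjusted p under 0.05, beside 8.3% of all genes tested, and none rose. These included Lrpprc, whose product stabilises mitochondrial mRNAs (172 ± 28.3 CPM in EIIa-ctl and 101 ± 18.4 in EIIa-tg; -0.77 ± 0.17, adjusted p = 0.0254 by edgeR), Fastk, whose mitochondrial form is needed for the mt-Nd6 mRNA (-0.75 ± 0.17, 0.0269), and Tfb2m, a transcription factor of the mitochondrial polymerase (-0.66 ± 0.15, 0.0291). In the Myh6 comparison 13 of the 34 fell at that threshold, beside 9.38% of all genes tested, and none rose. Lrpprc (144 ± 20.4 CPM in Myh6-ctl and 44.3 ± 10.4 in Myh6-tg; -1.70 ± 0.22, adjusted p = 0.00461) and Ppargc1a, a coactivator of mitochondrial biogenesis (-2.39 ± 0.34, 0.00588), were called, beside 2.05% of all genes tested called lower. Fastk (-1.46 ± 0.26, adjusted p = 0.0121), the mtDNA polymerase gene Polg (-0.94 ± 0.17, 0.0111) and the mitochondrial RNA polymerase gene Polrmt (-0.64 ± 0.18, 0.0438) fell. With the replicate block 6 of the 34 were called, beside 3.6% of all genes called lower. The 13 became 2 to 4 without Myh6-ctl replicate 1, Myh6-tg replicate 2 or Myh6-tg replicate 3, and over all single hearts left out the count ran from 2 to 17. The 10 of the EIIa comparison became 0 without EIIa-ctl replicate 1 or 3 or EIIa-tg replicate 1 or 3, and 4 without EIIa-ctl replicate 2. Over all single hearts left out that count ran from 0 to 13.

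Other genes of the list did not pass the test. Tfam, which packages mtDNA and starts its transcription, had -0.04 ± 0.10 in the EIIa comparison (adjusted p = 0.805) and -0.50 ± 0.22 in the Myh6 comparison (0.149 by edgeR). Slirp, the partner of Lrpprc, had -0.12 ± 0.15 and -0.28 ± 0.35, with adjusted p values of 0.621 and 0.612. Polrmt had -0.21 ± 0.15 in the EIIa comparison (adjusted p = 0.335). The largest positive values were those of Nrf1 in the EIIa comparison (0.26 ± 0.16, adjusted p = 0.271) and Rexo2 in the Myh6 comparison (0.75 ± 0.23, 0.0587). Between the models the lowest p belonged to Ppargc1a (-2.28 ± 0.40, adjusted p = 0.0112), Esrra (-1.02 ± 0.29, 0.0724) and Polg (-0.63 ± 0.18, 0.0838). Between the control groups no gene of the list passed, and Ppargc1a, Fastkd1 and Supv3l1 had the lowest p (0.94, -0.46 and -0.37, adjusted p = 0.23 to 0.387 by edgeR).

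**Figure D5:**
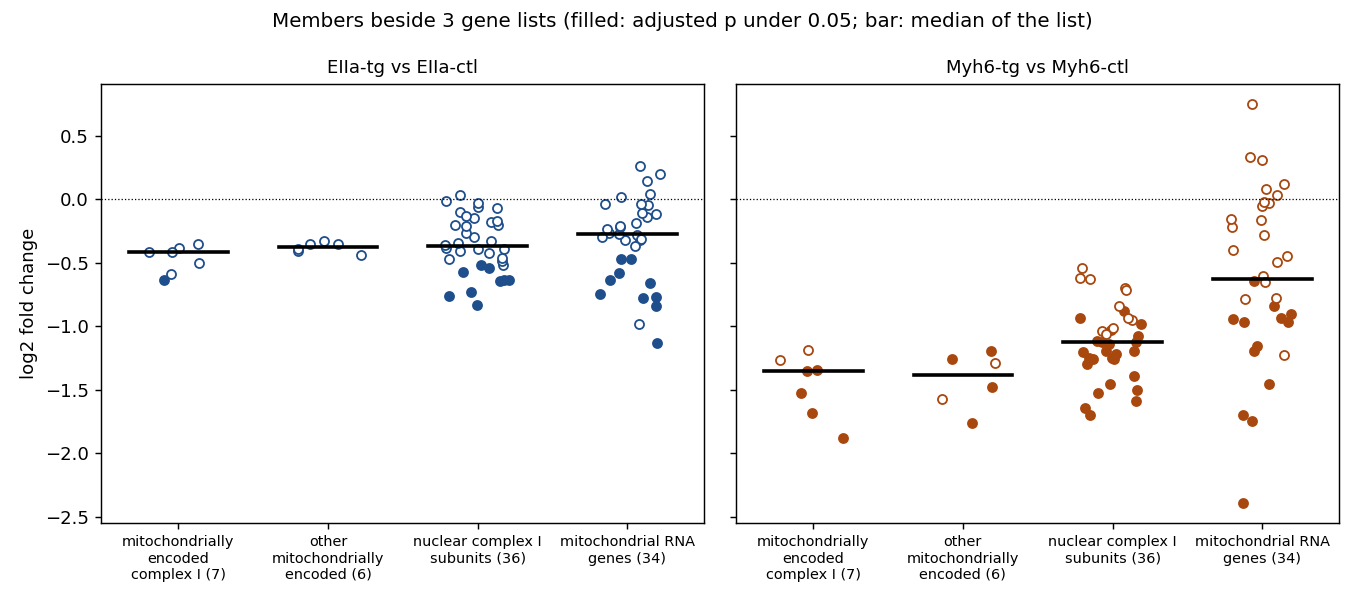
Log2 fold change of the 7 genes beside the 6 other mitochondrially encoded genes, 36 nuclear complex I subunit genes and 34 genes of mitochondrial RNA, with a point per gene, filled at an adjusted p under 0.05, and the median of each list as a bar. The medians of the 7 genes (-0.42 and -1.35) and of the nuclear subunits (-0.37 and -1.12) lie below 0 in both models.

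Markers of the cell types of the heart differed between the groups beside these results. The 9 cardiomyocyte markers summed to 43215 to 52241 CPM in EIIa-ctl and 22012 to 37908 in EIIa-tg, and to 33231 to 44942 in Myh6-ctl and 10714 to 32613 in Myh6-tg. At an adjusted p under 0.05, 2 of the 9 fell in the EIIa comparison (Ryr2 and Myl3) and 5 in the Myh6 comparison (Myh6, Pln, Tnni3, Myl2 and Myl3). Of all genes tested, 8.3% and 9.38% fell at that threshold. Tnnt2 had log2 fold changes of 0.09 and 0.44 (adjusted p = 0.691 and 0.559) and Actn2 had -0.09 and 0.58 (0.674 and 0.214). Leaving out 1 heart gave 0 to 7 cardiomyocyte markers that fell in the EIIa comparison, the 7 without EIIa-tg replicate 2, and 1 to 6 in the Myh6 comparison, the 1 without Myh6-tg replicate 2. The 9 fibroblast markers summed to 1545 to 2272 CPM, 2849 to 4108, 2067 to 2733 and 3334 to 8265 in the same order of groups, with 2 and 4 genes that rose at an adjusted p under 0.05, as did 8.65% and 8.96% of all genes tested. In the Myh6 comparison the fibroblast markers Lum (-0.79) and Dpt (-0.33) had values below 0. Leaving out 1 heart gave 0 to 4 calls among the 9 fibroblast markers there. The 9 macrophage markers summed to 295 to 436, 569 to 774, 537 to 753 and 729.8 to 1449 CPM, with 9 and 0 genes that rose. The 9 became 0 without EIIa-ctl replicate 1 or 3 or EIIa-tg replicate 1 or 3, as did the 2 fibroblast genes, and in the Myh6 comparison Adgre1 (-0.60) and Fcgr1 (-0.33) had values below 0. The 7 endothelial markers summed to 1022 to 1173, 792 to 889.7, 644 to 1357 and 608 to 716 CPM, with 3 and 0 genes that fell. The 3 became 0 without the same 4 EIIa hearts and 1 without EIIa-ctl replicate 2, and the 0 became 2 without Myh6-ctl replicate 2 and 1 without Myh6-tg replicate 1. The 6 smooth muscle and pericyte markers summed to 1061 to 1129, 894 to 1047, 811 to 1186 and 831 to 1475 CPM, with Cnn1, a contractile gene of smooth muscle, rising by 3.81 and 4.82 on the log2 scale and Myh11 falling by 1.08 in the Myh6 comparison. Cnn1 does not stand for the 6, whose mean sum was 1084 CPM in EIIa-ctl and 971 in EIIa-tg, lower although Cnn1 rose. It was 975 in Myh6-ctl and 1206 in Myh6-tg. Adjusted p values of Cnn1 and Myh11 are not given here. Leaving out 1 heart gave 0 to 1 calls among the 6 and 0 to 1 that fell at an adjusted p under 0.05, in each of these comparisons. The 3 T cell markers in the table summed to 0.0427 to 1.67 CPM over the 12 hearts, and no marker in the table was at 0 in every heart of a group. The part of these cell types in the levels of the 7 genes was not tested.

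Among 10355 loci with a mean of at least 5 CPM, those with an mt- symbol left out, the pattern most like mt-Nd1 over the 12 hearts belonged to the unannotated locus NewGene_1278, whose position the table does not give (Pearson's r = 0.99 of log2 CPM), followed by Pkdcc, Mrpl28, Ndufb5 and Apip (0.98 to 0.99). For mt-Nd6 the genes were Mrpl2, Ankrd40, Slc29a1, Ndufa8 and Ndufa9 (0.98 for each). Mrpl28 and Mrpl2 encode proteins of the mitochondrial ribosome, and Ndufb5, Ndufa8 and Ndufa9 encode nuclear complex I subunits. Ankrd40 had 219 ± 9.05, 192 ± 12.1, 204 ± 25.95 and 158 ± 14.8 CPM in these groups, listed as EIIa controls, EIIa-tg, Myh6 controls and Myh6-tg, a narrower range than mt-Nd6. The correlations rest on 12 hearts in 4 groups that share depth and scaling, and are descriptions.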

How the data were processed

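RNA was sequenced from 12 hearts in 4 groups of 3 (paired-end, NovaSeq), and the authors deposited raw counts and FPKM per gene. Reads were aligned with HISAT2 to GRCm38 per the study's methods; the submitters' processing notes list HISAT2 2.0.4, StringTie 2.2.1 and DESeq2, and the builds GRCm39 and mm10. The counting program, annotation and strand setting are not given in the sources used here. Depth was 38343106 to 50969834 counts per heart.

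Counts were tested with edgeR 4.0.16 (R 4.3.3; filterByExpr, TMM factors, quasi-likelihood test, Benjamini-Hochberg adjustment over all genes tested) within each pair of groups, and over 12 hearts for the interaction. A call needed an adjusted p under 0.01 and a 2-fold change. All 7 genes passed the filter on low counts. Normalised CPM used TMM factors over the 12 hearts. DESeq2 1.42.0, limma 3.58.1 on log2(FPKM + 1), a replicate block, other scalings and filters and leaving out each heart were alternatives. Ratios of mt-Nd6 were tested by exact two-sided permutation over hearts (numpy 2.4.6), with Benjamini-Hochberg adjustment over the 6 ratios (scipy 1.17.1). Sequences and positions came from GENCODE M21 (GRCm38), and nuclear copies from blastn 2.17.0+ against its transcripts. The scripts were tested on simulated data.

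Same-numbered hearts were checked for pairing by the correlation of their deviations from group means. It was 0.285, 0.184 and 0.173 in the Myh6 comparison, all above the 0.1 set as the rule, and -0.07 to 0.06 in the EIIa comparison. Between the control groups, which differ in line and age, it was 0.124 for replicate 1, 0.060 for replicate 2 and -0.031 for replicate 3. A value above 0.1 therefore does not show that hearts are pairs. Replicate 1 is also the heart with Y-linked reads in each group, so the block cannot tell pairing apart from that difference. Nothing in the labels says more than that hearts are biological replicates. The genes and lists were chosen with earlier results of these data known. From each list the text names the 3 genes with the lowest p, the gene farthest against the median and, for the RNA genes, Lrpprc, Slirp, Fastk, Tfam and Polrmt. The transgene and the nuclear copies were not analysed here.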

Additional observations from a re-analysis of the deposited data

Results flagged for a closer look

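The log2 fold change of mt-Nd3 differed between the models by -1.5 (Myh6 minus EIIa), with an adjusted p of 0.0152 for the interaction in edgeR; in CPM scaled with TMM factors all 3 transgenic hearts were below all 3 controls in each model, and in FPKM the EIIa groups overlapped. Ppargc1a differed by -2.28 (adjusted p = 0.0112), with 53.2 and 49.5 CPM in EIIa-ctl and EIIa-tg and 102 and 19.5 CPM in Myh6-ctl and Myh6-tg. The share of the 7 genes among the counts of the 13 mitochondrial protein genes differed from the controls by -1.49 percentage points in EIIa-tg and by 1.97 points in Myh6-tg, each without overlap between the groups, a difference of 3.46 points that was not tested. The rise in Myh6-tg was not common to the 7, as the mean shares of mt-Nd2, mt-Nd3 and mt-Nd4l were lower there. The mean share of mt-Co1, outside the 7, went the other way in each model.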

How the results depend on the processing

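Of the 7 genes, the EIIa comparison called 0, and 1 at an adjusted p under 0.05 with no fold limit. The Myh6 comparison called 1, but 5 at an adjusted p under 0.05 with or without the fold limit, 7 with DESeq2, 6 in a fit of all 12 hearts and 3 with the replicate block; at an adjusted p under 0.05 the 5 became 2 with the bias-adjusted quasi-likelihood, 1 on log2(FPKM + 1) and 3 with no filter; the interaction called 0, but 1 at an adjusted p under 0.05 with or without the fold limit and 2 with DESeq2. In the Myh6 comparison 2.05% of all genes tested were called lower by edgeR, 7.37% by DESeq2 and 3.6% with the replicate block. For the other settings that share is not given here, so their counts cannot be set beside it. With the replicate block, which matched the Myh6 hearts by number alone, calls among nuclear subunits went from 2 to 14 and among RNA genes from 2 to 6. DESeq2 called 25 and 6. DESeq2 also called 1 RNA gene in the EIIa comparison and 1 in the interaction, where edgeR called 0. The block took mt-Nd4l in the EIIa comparison to an adjusted p of 0.108. Leaving out 1 heart at a time gave 0 to 1 calls of the 7 genes, 0 to 14 nuclear subunits and 0 to 7 RNA genes in the Myh6 comparison, 0, 0 to 3 and 0 to 4 in the EIIa comparison, 0, 0 to 1 and 0 to 2 in the interaction and 0 between the controls; 0 to 2 mt-Nd6 ratios passed. Among fold changes of the 7 genes, sign changes occurred between the control groups: mt-Nd4 was -0.0093 with the replicate block and -0.00085 on log2(FPKM + 1) and log2(FPKM + 0.1). Without EIIa-ctl replicate 2 or Myh6-ctl replicate 1 or 2 mt-Nd4 turned negative, without Myh6-ctl replicate 2 mt-Nd1 did, and without EIIa-ctl replicate 1 or Myh6-ctl replicate 2 mt-Nd4l turned positive, as mt-Nd6 did without Myh6-ctl replicate 3. Over single hearts left out, mt-Nd1 ranged from -0.037 to 0.28, mt-Nd4l from -0.29 to 0.16, mt-Nd4 from -0.15 to 0.23 and mt-Nd6 from -0.33 to 0.14. Ratios of mt-Nd6, none of them past the test, also changed sign: in the Myh6 comparison to mt-Nd4l (-0.03 to 0.80) and mt-Nd5 (-0.12 to 0.43), in the EIIa comparison to mt-Nd3 (-0.09 to 0.08) and mt-Nd4 (-0.04 to 0.06), in the interaction to mt-Nd4l (-0.26 to 0.57) and mt-Nd5 (-0.29 to 0.27), and between the controls to mt-Nd4l (-0.57 to 0.26) and mt-Nd5 (-0.29 to 0.26). The cause was not tested. Of the values for single genes and ratios, 331 of those from other settings kept their direction and side of the threshold, 15 passed it newly and 3 reversed.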

Other observations

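The unannotated locus NewGene_1278, whose FPKM values correspond to a length of 1283 bases and whose position the table does not give, held 1.18% to 3.86% of the counts of a heart. Its mean level was 32957 ± 815 CPM (SD, n = 3) in EIIa-ctl against 27930.1 ± 4037 in EIIa-tg, and 37113 ± 9377 in Myh6-ctl against 11543 ± 2161 in Myh6-tg. Its log2 fold change was -0.24 in the EIIa comparison (adjusted p = 0.505 by edgeR) and -1.68 in the Myh6 comparison (adjusted p = 0.0241).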
